A study of Arabidopsis thaliana with 10 samples.

Results

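TE genes are annotated transposable elements that carry an Arabidopsis locus number, and most of them lie in the heterochromatin around the centromeres. The 555 TE genes described here lie on the chromosome arms. They were chosen by locus number alone, as those outside the ranges AT1G31950 to AT1G48000, AT2G03600 to AT2G16600, AT3G27700 to AT3G47000, AT4G03400 to AT4G10100 and AT5G25800 to AT5G40000, and they make up 555 of 3895 TE genes (14.2%) and of 33271 loci in the tables. Chromosomes 1 to 5 carried 159, 93, 101, 99 and 103 of them. The remaining 3340 TE genes are called pericentromeric.

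Small RNAs of mature Arabidopsis pollen were sequenced in 5 groups of 2 libraries, all in the Col-0 background. pMGH3::RTL1 and pLAT52::RTL1 plants express Myc-tagged RTL1, an RNase III-like protein that cleaves double-stranded RNA and so removes siRNA precursors. The MGH3 promoter is active in the generative cell and the sperm cells, and the LAT52 promoter acts in the late microspore and then mainly in the vegetative cell, so that neither line expresses RTL1 evenly in the grain. The replicates of each construct are separate transgenic lines, and WT Col-0 pollen without a transgene was their control. In a second experiment, nrpd1a-3 FTL and WT FTL pollen was sorted by FACS from heterozygous plants, in which a LAT52-driven DsRed reporter is linked to the functional NRPD1a allele. DsRed-negative grains are the mutant nrpd1a-3 FTL pollen, which lost Pol IV only after meiosis, and DsRed-positive grains are the WT FTL pollen. The libraries are labelled as biological replicates. Whether those of WT Col-0 or of a sorted genotype came from separate plants is not given in the sources used here, so p-values measure the spread between these libraries, whatever its origin.

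In plants, RNA polymerase IV transcribes TEs into short RNAs that are made double-stranded and diced into 24-nt siRNAs, which guide DNA methylation back to the TE. Transcripts made by RNA polymerase II from reactivated TEs can also be processed into 21- and 22-nt siRNAs, a class known from the vegetative cell of pollen. The study describes Pol IV as the main route to siRNAs in Arabidopsis pollen, without limiting this to 24 nt. NRPD1a is the largest subunit of RNA polymerase IV.

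All values are signals summed over 18 to 30 nt in the unit RPM as the authors deposited them, in which a read that matches several places without mismatch was shared equally among them. Over all loci they summed to between 3743340 RPM in the first WT Col-0 library and 8672910 RPM in the first pMGH3::RTL1 library, more than the unit can reach, so what each library was scaled to is not known and other scalings were tried. A single read was worth between 0.430 and 1.46 RPM, the libraries held from 4296910 to 10349600 hit-weighted reads over all loci, and the arm TE genes took between 16049 and 171993 of them. MIR845a, the pollen microRNA gene, ranked first or second among 177 microRNA genes in every library. MIR163, MIR165a and MIR408 were taken as markers of sporophytic tissue. MIR163 stood at 243 and 231 RPM in WT Col-0 pollen, but between 513 and 1083 RPM over the libraries of both constructs. MIR165a was above WT Col-0 only in pLAT52::RTL1 pollen, and MIR408 overlapped WT Col-0 in both constructs. In nrpd1a-3 FTL pollen MIR163 and MIR408 were above both WT FTL libraries, and MIR165a overlapped. Whether sporophytic material differed between groups was not tested. At the RTL1 locus itself, 1023 and 302 RPM were listed in pMGH3::RTL1 pollen and 93.7 and 23.8 RPM in pLAT52::RTL1 pollen, against 4.30 and 11.9 RPM in WT Col-0 pollen. At the NRPD1a locus, 13.1 and 4.69 RPM were listed in nrpd1a-3 FTL pollen, against 6.67 and 3.61 RPM in WT FTL pollen, which are small RNAs and no measure of the mRNA. Libraries of one group also differed in RNA length. In the second WT Col-0 library 41.2% of the arm signal was 24 nt long, against 56.9% in the first.

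The copies behind the clearest change are so alike that short reads cannot always be assigned to one of them. The first set of windows is shown because its 6 TE genes, on 3 chromosomes, were all reduced in pMGH3::RTL1 pollen. Capitals mark the positions at which copies differ, and each window has 90 bases without gaps. Windows were tried at regular steps along the first TE gene of a set, and the one with the fewest differences from it was taken. For the third set, windows that a copy matched without any difference were passed over, so more alike stretches may exist there. Sequences are from RefSeq, build TAIR10.1, and the strand is that of the printed sequence. Of 90 bases, 83 are the same in all 6 copies: AT2G01029 (chr2:32115-32204, plus strand), AT2G01040 (chr2:66377-66466, minus strand), AT2G21460 (chr2:9192955-9193044, minus strand), AT3G47230 (chr3:17393172-17393261, plus strand), AT3G47240 (chr3:17394332-17394421, minus strand), AT1G54926 (chr1:20477116-20477205, minus strand).
AT2G01029: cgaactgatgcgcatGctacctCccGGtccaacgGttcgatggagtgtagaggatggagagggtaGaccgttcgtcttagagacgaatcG
AT2G01040: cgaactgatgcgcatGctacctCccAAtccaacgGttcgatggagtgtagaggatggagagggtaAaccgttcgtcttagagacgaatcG
AT2G21460: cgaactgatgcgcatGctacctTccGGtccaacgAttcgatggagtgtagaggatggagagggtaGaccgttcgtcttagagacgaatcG
AT3G47230: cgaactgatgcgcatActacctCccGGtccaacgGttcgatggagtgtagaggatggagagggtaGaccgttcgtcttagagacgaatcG
AT3G47240: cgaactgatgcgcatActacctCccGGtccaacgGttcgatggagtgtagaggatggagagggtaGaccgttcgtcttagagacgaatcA
AT1G54926: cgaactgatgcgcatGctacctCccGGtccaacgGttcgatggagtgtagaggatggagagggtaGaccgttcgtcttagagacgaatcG
The second set is shown because it joins 4 TE genes at the tip of chromosome 2 with AT4G16910 on chromosome 4, and 84 of 90 bases are the same in all 5 copies: AT2G01026 (chr2:19311-19400, minus strand), AT2G01024 (chr2:16082-16171, minus strand), AT2G01034 (chr2:45114-45203, minus strand), AT2G01037 (chr2:59303-59392, minus strand), AT4G16910 (chr4:9511315-9511404, minus strand).
AT2G01026: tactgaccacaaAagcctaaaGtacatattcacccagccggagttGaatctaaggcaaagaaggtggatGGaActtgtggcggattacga
AT2G01024: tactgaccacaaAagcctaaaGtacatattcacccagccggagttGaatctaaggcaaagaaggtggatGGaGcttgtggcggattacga
AT2G01034: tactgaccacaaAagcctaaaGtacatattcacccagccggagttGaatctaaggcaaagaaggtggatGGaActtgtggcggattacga
AT2G01037: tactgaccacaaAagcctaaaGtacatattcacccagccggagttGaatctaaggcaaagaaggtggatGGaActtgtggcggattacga
AT4G16910: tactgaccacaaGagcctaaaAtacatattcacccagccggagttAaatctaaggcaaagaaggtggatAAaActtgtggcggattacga
The third set is AT1G50810 with its near-identical pericentromeric copies AT2G15650 and AT1G35115. It is shown because AT1G50810 was the only arm TE gene reduced in pMGH3::RTL1 pollen outside the relatives of ATGP2 retrotransposons defined below. In it, 89 of 90 bases are the same in all 3 copies: AT1G50810 (chr1:18829998-18830087, plus strand), AT2G15650 (chr2:6820452-6820541, plus strand), AT1G35115 (chr1:12842685-12842774, plus strand).
AT1G50810: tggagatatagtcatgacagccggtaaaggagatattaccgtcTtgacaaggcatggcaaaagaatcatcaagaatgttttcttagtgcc
AT2G15650: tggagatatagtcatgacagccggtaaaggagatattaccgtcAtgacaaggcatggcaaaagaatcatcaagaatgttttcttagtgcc
AT1G35115: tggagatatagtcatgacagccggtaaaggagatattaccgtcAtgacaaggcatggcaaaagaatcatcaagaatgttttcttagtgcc
Reads that match several copies are shared out by the number of hits, so the values of such copies are not independent measurements.

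Small RNAs reached nearly every arm TE gene, but a handful held much of the signal. The mean over the 10 libraries had a median of 43.7 RPM, with quartiles of 9.26 and 101 RPM, and ranged between 0.0354 and 4812 RPM. A mean of at least 100 RPM was found at 140 TE genes. The highest 2 held 16.2% of the arm signal, the highest 10 held 30.3% and the highest 50 held 51.6%. On the arms of chromosome 2 the median TE gene had 45.7 RPM, and on those of chromosome 4 it had 31.2 RPM, with the other chromosomes between 39.5 and 47.1 RPM. At the 10 limits of the rule, the nearest arm TE genes had means between 1.05 and 236 RPM and the nearest pericentromeric ones between 11.6 and 312 RPM.

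The highest member was AT2G01029 (chr2:28465-38652, plus strand), an element of the ATGP2 family of LTR/Gypsy retrotransposons, with a mean of 4812 RPM or 472 RPM per kb. AT2G01037 (chr2:58705-64872, minus strand), also ATGP2, followed with 3766 RPM or 611 RPM per kb. Both stand at the tip of chromosome 2, in a run of 9 arm TE genes between positions 10478 and 67139. Per length, AT3G47240 (chr3:17393861-17394988, minus strand) was highest with 923 RPM per kb, followed by AT1G54905 (chr1:20470025-20470247, plus strand) with 796 RPM per kb and AT3G47230 (chr3:17392099-17393699, minus strand) with 667 RPM per kb. AT1G54905 is 223 bp long and none of its 24-mers occurs elsewhere in the genome. AT2G36040, of 183 bp, had 601 RPM per kb and AT5G25305, of 551 bp, had 589.8 RPM per kb.

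The arm TE genes carried mostly 24-nt siRNAs. Among the 434 that passed the filter of a mean of 12 hit-weighted reads in the unsorted libraries, the median share of 24 nt was 52.0% (quartiles 48.4 and 54.6%) and that of 21 and 22 nt together was 23.3% (quartiles 20.7 and 26.1%). More 21- and 22-nt than 24-nt RNA was found at 24 of the 434. AT1G50810 stood out in this group, since it was the only one with a mean above 100 RPM. Of its signal 78.6% was 21 and 22 nt long and 8.35% was 24 nt long. AT4G10690 had a still higher 21- and 22-nt share of 82.5% at a mean of 31.2 RPM, and AT3G62455 had 81.3% at 20.7 RPM. At the other end, AT3G26605, of which no 24-mer occurs elsewhere in the genome, had 64.7% of its signal in 24 nt, AT2G36040 had 63.8% and AT3G13250 had 62.2%.

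The arm and the pericentromeric TE genes had median lengths of 2031 and 2047.5 bp and median GC contents of 41.0 and 41.5%. The median distance to the nearest protein-coding gene was 879 bp on the arms and 7859 bp in the pericentromeric ranges. Of the 555, 29 overlapped a coding gene, 275 lay within 1000 bp of one and 251 lay farther off. A median of 76.9% of the 24-mers of an arm TE gene occurred once in the genome, against 64.5% in a pericentromeric one. Across the 555 TE genes, which are not independent replicates, TE genes with fewer unique 24-mers had more signal per kb (Spearman rho -0.40), a description that shares its libraries and its hit weighting over all points.

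**Figure D1:**
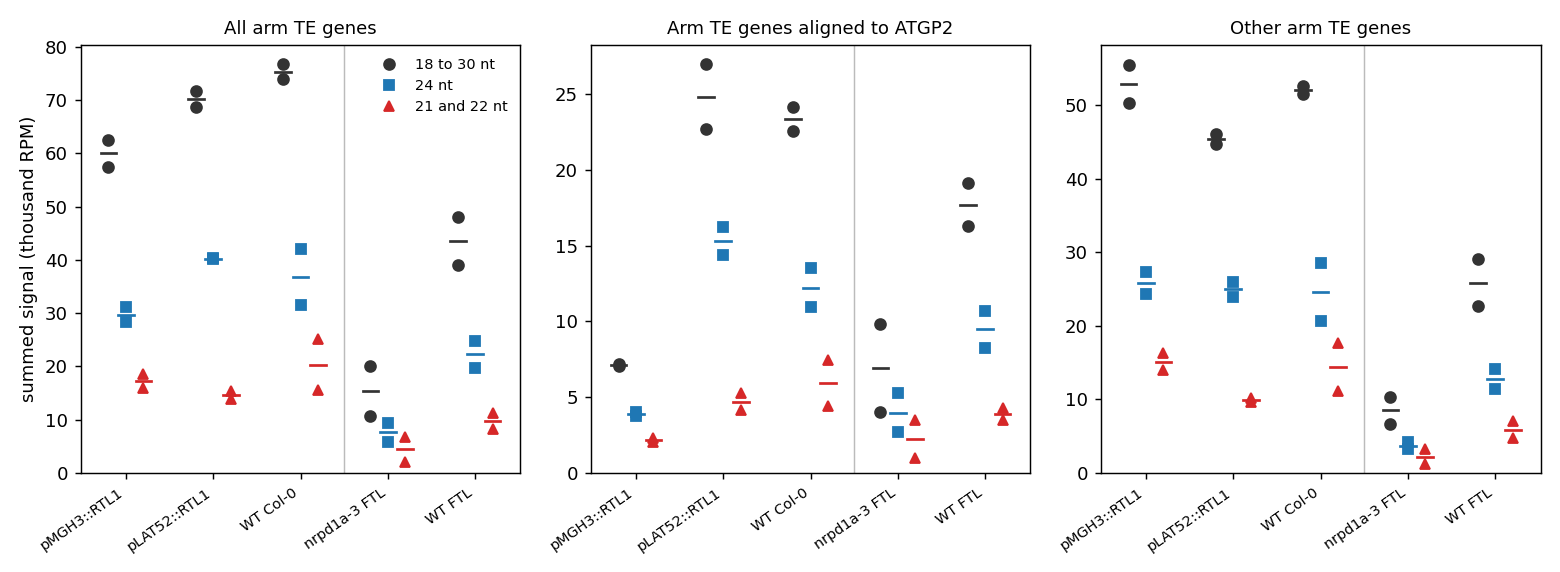
Summed signal in units of 1000 RPM for all arm TE genes, the 18 aligned to ATGP2 and the other 537, with 1 point per library, a dash for the group mean of 2 libraries, and black circles for 18 to 30 nt, blue squares for 24 nt and red triangles for 21 and 22 nt. The ATGP2-aligned sum is 7186 and 7076 RPM in pMGH3::RTL1 and 22564 and 24134 RPM in WT Col-0 pollen, and both nrpd1a-3 FTL libraries lie below both WT FTL libraries in the sum over 18 to 30 nt of each panel.

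The first comparison asks what RTL1 in the male germline did to the small RNAs of the arm TE genes. In pMGH3::RTL1 pollen, 14 of the 434 tested arm TE genes were reduced and none was raised, and 13 of those 14 were related to the ATGP2 retrotransposons. Their log2 changes lay between -2.41 and -1.13. The arm TE genes together had 57457 and 62559 RPM in pMGH3::RTL1 pollen, against 73999 and 76706.5 RPM in WT Col-0 pollen, and the difference in sum lay mostly in the ATGP2 relatives. Relatives of ATGP2 are here the 18 arm TE genes that align to an ATGP2-named TE gene with at least 80% identity over at least 200 bp, a group defined after the values were seen and given without a test. These 18 had 7186 and 7076 RPM in pMGH3::RTL1 pollen, against 22564 and 24134 RPM in WT Col-0 pollen. The other 537 had 50271 and 55483 RPM in pMGH3::RTL1 pollen and 51434 and 52573 RPM in WT Col-0 pollen, and these ranges overlap.

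Calls are adjusted p below 0.05 in limma on log2(signal + 1) over all 11533 loci tested, and 0.962% of all loci were called reduced and 0.477% raised. At an unadjusted p below 0.05, 29 arm TE genes were reduced and 20 raised. The 121 arm TE genes below the filter had means up to 9.81 RPM and a median length of 738 bp, against 2582 bp in the 434. The median log2 change of the 434 was 0.03, beside 0.08 over all tested loci and -0.16 over the 3099 pericentromeric TE genes tested, of which 48 were reduced and 0 were raised (51 at an unadjusted p below 0.05 by the same limma fit). Both pMGH3::RTL1 libraries lay below both WT Col-0 libraries at 93 of 434 arm TE genes (21.4%), against 22.5% of all loci, and above them at 105 (24.2%), against 29.4% of all loci.

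At AT2G01029, 1678 and 1518 RPM were measured in pMGH3::RTL1 pollen, against 6942 and 8385 RPM in pLAT52::RTL1 and 6705 and 7173 RPM in WT Col-0 pollen. The pMGH3::RTL1 libraries stood far below the other 4, which overlapped each other. The log2 change against WT Col-0 was -2.12 (SE 0.29, limma adjusted p = 0.015). AT2G01037 behaved alike, with 1442 and 1217 RPM in pMGH3::RTL1 pollen, 5078 and 6042 RPM in pLAT52::RTL1 and 4679 and 5679 RPM in WT Col-0 pollen, and a log2 change of -1.96 (limma adjusted p = 0.021). These 2 genes held 5.43 and 4.37% of the arm signal in pMGH3::RTL1 pollen and 15.4 and 16.8% in WT Col-0 pollen.

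The largest decrease among the 14 was at AT1G54926 (chr1:20476624-20477773, minus strand), 257 bp from the coding gene AT1G54930. It had 220.1 and 195 RPM in pMGH3::RTL1 pollen, 1079.8 and 1371 RPM in pLAT52::RTL1 and 1116 and 1101 RPM in WT Col-0 pollen. No library of pMGH3::RTL1 came near those of the other groups, and the log2 change against WT Col-0 was -2.41 (SE 0.23, limma adjusted p = 0.0054). Its neighbour AT1G54923, on the same strand, had 142 and 130.5 RPM in pMGH3::RTL1 and 378 and 339 RPM in WT Col-0 pollen.

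Decreases were found at the tip of chromosome 2 and on other arms. AT2G01040 (chr2:65436-67139, minus strand) had 259 and 245 RPM in pMGH3::RTL1 pollen, 1191 and 1362 RPM in pLAT52::RTL1 and 1177 and 1186 RPM in WT Col-0 pollen, a log2 change of -2.22 against WT Col-0 (SE 0.22, limma adjusted p = 0.0054). AT2G21460 (chr2:9188338-9194491, minus strand) on the other arm of that chromosome had 597 and 621 RPM in pMGH3::RTL1 pollen, 1832 and 2185 RPM in pLAT52::RTL1 and 1845 and 1791 RPM in WT Col-0 pollen, a log2 change of -1.58 (limma adjusted p = 0.022). The adjacent AT3G47230 and AT3G47240 fell by 1.59 and 1.69 on the log2 scale, and the remaining members of the 14, AT2G01024, AT2G01026, AT2G01028, AT2G01034, AT1G54923 and AT4G16910, fell by between 1.13 and 1.80. AT4G16910 (chr4:9509676-9511760, minus strand) was nearest to the threshold with an adjusted p of 0.050 in limma, and it had 189 and 180.1 RPM in pMGH3::RTL1 and 411 and 398 RPM in WT Col-0 pollen.

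**Figure D2:**
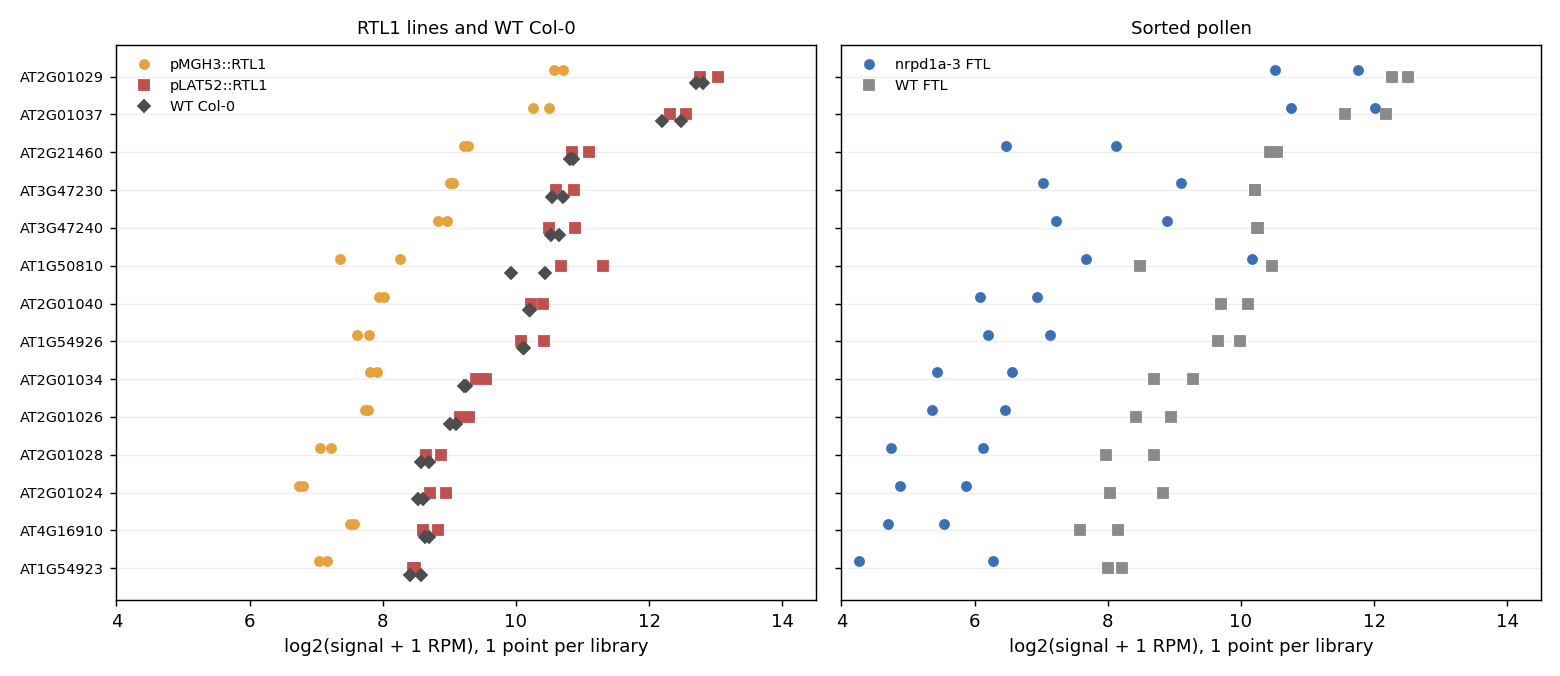
Signal of the 14 arm TE genes reduced in pMGH3::RTL1 pollen, on the scale log2(signal + 1 RPM), with 1 point per library, the RTL1 lines and WT Col-0 on the left and sorted pollen on the right. For each TE gene both pMGH3::RTL1 points lie below the 4 points of pLAT52::RTL1 and WT Col-0 pollen, and the sorted groups overlap at AT2G01037 and AT1G50810.

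The run of 9 arm TE genes at the tip of chromosome 2, singled out after its values were seen, held 7.62 and 6.50% of all arm signal in pMGH3::RTL1 pollen, 22.7 and 25.7% in pLAT52::RTL1 and 20.0 and 21.3% in WT Col-0 pollen. Of the 9, 7 were among the 14 reduced. AT2G01022, an ATGP1 element of the same Gypsy superfamily at the outer end of the run, had 293 and 343 RPM in pMGH3::RTL1 and 305 and 328 RPM in WT Col-0 pollen, which overlap. Of the 18 relatives, the 5 without a call were AT3G62475, AT4G10580, AT4G20490, AT4G32215 and AT4G32220, all lower in pMGH3::RTL1 than in WT Col-0 pollen, with log2 changes between -0.76 and -0.23. In the pericentromeric ranges 175 TE genes aligned to ATGP2 by the same limits, and 40 of them were reduced with a median log2 change of -0.21. At 23 and 24 nt alone 19 of 404 arm TE genes were reduced and 0 raised (33 and 9 at an unadjusted p below 0.05 in limma), against 3.34% and 1.34% of all loci, and 14 of the 17 relatives tested at that length were among them.

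AT1G50810 (chr1:18828868-18832972, plus strand) was the exception among the 14. It lies inside an intron of AT1G50820, a coding gene on the opposite strand, between exons that end at 18828521 and start at 18833275, and does not align to ATGP2. It had 306 and 163 RPM in pMGH3::RTL1 pollen, 1644 and 2533 RPM in pLAT52::RTL1 and 967 and 1385 RPM in WT Col-0 pollen. All 3 groups were apart from each other, with pLAT52::RTL1 highest, and the log2 change of pMGH3::RTL1 against WT Col-0 was -2.37 (SE 0.37, limma adjusted p = 0.026). The 21- and 22-nt share was 48.3 and 43.3% in pMGH3::RTL1 pollen, 83.2 and 81.9% in pLAT52::RTL1 and 75.1 and 82.8% in WT Col-0 pollen. At 21 and 22 nt alone the log2 change was -3.15 (limma adjusted p = 0.00072), and the other arm TE genes of 327 reduced at these lengths were AT2G01029 (-1.92) and AT2G01037 (-2.02), against 0.48% of all loci reduced and 0.794% raised. Reads of AT1G50810, of its near-identical pericentromeric copies and of unspliced AT1G50820 transcripts cannot be told apart in these values.

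These calls rest on few libraries. Without either pMGH3::RTL1 library 0 arm TE genes passed the limma threshold (24 and 29 reduced at an unadjusted p below 0.05), without either pLAT52::RTL1 library 3 were reduced, and without the second WT Col-0 library 21 were reduced. Scaling to the microRNA genes moved the median of all tested loci to -0.68, against 0.08 as deposited, and gave 86 reduced arm TE genes. The share of all loci called under that scaling was not taken, so this count is not read as particular to arm TE genes. Under every scaling the arm TE genes kept within 0.07 of the median of all loci (arm minus all between -0.07 and -0.05 on the log2 scale).

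The second comparison asks the same of RTL1 in the vegetative cell. In pLAT52::RTL1 pollen the arm TE genes had a slightly lower sum and less 21- and 22-nt RNA. No arm TE gene passed the limma threshold in either direction (of 434 tested, 47 were reduced and 7 raised at an unadjusted p below 0.05, against 0.156% of all loci called reduced and 1.64% raised). The arm sum was 68746 and 71654 RPM in pLAT52::RTL1 pollen, against 73999 and 76706.5 RPM in WT Col-0 pollen. Both pLAT52::RTL1 libraries were below both WT Col-0 libraries. The median log2 change was -0.11, beside 0.17 over all tested loci and -0.20 over the pericentromeric TE genes, where 3 of 3099 were reduced. Both pLAT52::RTL1 libraries were below both WT Col-0 libraries at 187 of 434 arm TE genes (43.1%), against 20.6% of all loci, and above at 75 (17.3%), against 32.1%. The median of the arm TE genes stood 0.28 below that of all loci, and between 0.28 and 0.29 below it under each of 4 other scalings, although the median of all loci itself moved to between -0.15 and 0.08.

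At 21 and 22 nt the shift was larger. The median log2 change of 327 arm TE genes tested at these lengths was -0.63, beside -0.26 over all loci and -0.85 over pericentromeric TE genes, and 299 of 327 were lower in pLAT52::RTL1 pollen. Only 2 were called, both reduced, against 2.27% of all loci reduced and 2.4% raised. These were AT1G49080 (chr1:18159889-18160464, plus strand), of the ATENSPM9 family of CACTA-like DNA transposons, with a log2 change of -2.54 (limma adjusted p = 0.023), and AT1G52850 (chr1:19677577-19679780, plus strand), with -1.80 (limma adjusted p = 0.028). Over all lengths AT1G49080 had 33.9 and 23.9 RPM in pLAT52::RTL1 and 51.3 and 58.2 RPM in WT Col-0 pollen. The size of the shift depends on the control library. Without the second WT Col-0 library, in which 32.8% of the arm signal was 21 and 22 nt long against 20.97% in the first, the median change at 21 and 22 nt was -0.33, with 255 of 327 lower, and without the first WT Col-0 library it was -0.95. For pMGH3::RTL1 pollen the corresponding median was 0.18 with both controls, 0.49 without the second and -0.14 without the first, so its direction at these lengths depends on which control library is used. At 23 and 24 nt the median change in pLAT52::RTL1 pollen was 0.03, and by limma 0 of 404 arm TE genes were called (9 reduced and 16 raised at an unadjusted p below 0.05), against 0.18% of all loci reduced and 3.5% raised.

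The constructs were also compared directly. In pMGH3::RTL1 against pLAT52::RTL1 pollen, 16 of 434 arm TE genes were reduced and 2 were raised, against 2.5% and 1.06% of all loci. The reduced ones were 13 relatives of ATGP2, AT1G50810, AT3G21020 and AT2G29165. AT1G50810 had the largest change, -3.19 on the log2 scale (SE 0.37, limma adjusted p = 0.0043). AT3G21020 (chr3:7368267-7369526, plus strand) had 1.06 and 1.46 RPM in pMGH3::RTL1 pollen and 14.7 and 16.7 RPM in pLAT52::RTL1 pollen, close to the value of a single read in pMGH3::RTL1 (log2 change -2.89, limma adjusted p = 0.032). The raised ones were AT4G10690 (chr4:6589132-6593688, plus strand), with 64.7 and 46.7 RPM in pMGH3::RTL1 pollen and 18.6 and 21.9 RPM in pLAT52::RTL1 pollen (log2 change 1.40, limma adjusted p = 0.031), and AT4G10460 (chr4:6468166-6472263, plus strand), with 160.2 and 175 RPM in pMGH3::RTL1 pollen and 84.4 and 63.9 RPM in pLAT52::RTL1 pollen (log2 change 1.18, limma adjusted p = 0.040). WT Col-0 pollen, with 34.4 and 31.4 RPM at AT4G10690, lay between the constructs. The calls again rest on single libraries. Without the second library of either construct 0 arm TE genes were called (27 reduced in each case at an unadjusted p below 0.05 in limma), and without the first of either 5 were reduced and 0 raised.

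The median log2 change of the 434 was 0.20, beside -0.01 over all loci and 0.04 over pericentromeric TE genes, and both pMGH3::RTL1 libraries were above both pLAT52::RTL1 libraries at 211 of 434 (48.6%), against 29% of all loci, and below them at 92 (21.2%), against 30.1%. Relative to all loci this median was between 0.19 and 0.21 higher under every scaling, and by itself it turned to between -0.30 and -0.12 under 3 of the 4 other scalings. At 21 and 22 nt the median was 0.84, with 22 of 327 raised and 4 reduced, against 10.2% and 1.7% of all loci, so the raised share of the arm TE genes was below that background. AT2G01550, with a change of 1.79, and AT4G10690, with 1.73, were raised at 21 and 22 nt, and AT1G49080 by 2.45. At 23 and 24 nt 30 of 404 were reduced and 2 raised, against 11.5% and 1.2% of all loci.

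**Figure D3:**
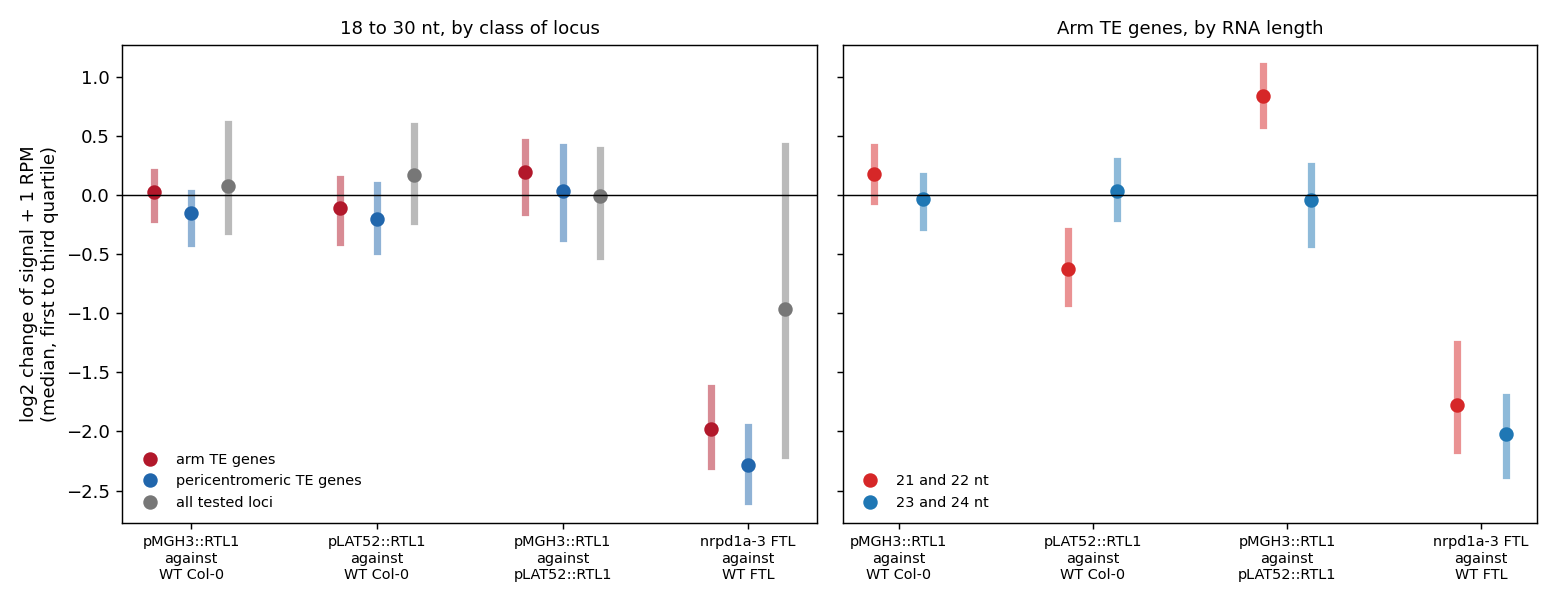
Median log2 change (points) with the range between the lower and upper quartile (bars) in each comparison, for arm TE genes, pericentromeric TE genes and all tested loci over 18 to 30 nt on the left, and for arm TE genes by RNA length on the right. The arm medians on the left are 0.03 for pMGH3::RTL1 and -0.11 for pLAT52::RTL1 against WT Col-0, 0.20 for pMGH3::RTL1 against pLAT52::RTL1 and -1.98 for nrpd1a-3 FTL against WT FTL.

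The sorted pollen asks how much of the arm signal depends on Pol IV after meiosis. Nearly all tested arm TE genes were lower in nrpd1a-3 FTL pollen. The arm TE genes together had 20145 and 10758 RPM in nrpd1a-3 FTL pollen, against 48136 and 39046 RPM in WT FTL pollen, and the median log2 change of the 352 tested was -1.98, with quartiles of -2.30 and -1.63. By log2 change 351 of 352 were lower, and at 329 of 352 (93.5%) both nrpd1a-3 FTL libraries were below both WT FTL libraries, against 50.6% of all loci. Over the 203 arm TE genes too low to test in sorted pollen no statement is made. Limma called 143 of 352 reduced and 0 raised (284 and 0 at an unadjusted p below 0.05), against 21.8% and 0.068% of all 7349 loci tested. Both genotypes were sorted at the same time from heterozygous plants, and with same-numbered libraries fitted as pairs 322 of 352 were reduced and 0 raised, against 48.1% and 9.32% of all loci. The paired fit has 1 residual degree of freedom, and limma then took the spread of each locus wholly from the trend over loci. The pericentromeric TE genes had a median of -2.28 with 1209 of 2353 reduced, and all loci had a median of -0.96. The median of the arm TE genes relative to all loci was between -1.03 and -1.02 under the deposited and 4 other scalings, while that of all loci itself moved to between -1.45 and 0.17.

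The number of calls in sorted pollen depends on single libraries, and all 143 adjusted p-values lie between 0.044 and the threshold in limma. Without the first or the second WT FTL library 0 arm TE genes were called (68 and 183 reduced at an unadjusted p below 0.05 in limma), without the first nrpd1a-3 FTL library 294 and without the second 16. In every one of these fits the median log2 change of the arm TE genes lay between -2.41 and -1.52. Leaving out a library was not possible in the paired fit, which would keep no residual degrees of freedom.

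The largest decreases among the called arm TE genes whose groups do not overlap were at AT4G37705, AT1G60310 and AT5G42645. AT4G37705 (chr4:17712564-17716691, plus strand) had 9.06 and 0 RPM in nrpd1a-3 FTL and 67.4 and 39.8 RPM in WT FTL pollen, a log2 change of -4.06 (SE 1.02, limma adjusted p = 0.044). AT1G60310 (chr1:22231188-22232737, minus strand) had 1.01 and 1.34 RPM in nrpd1a-3 FTL, the values of 1 and 2 reads, and 39.4 and 27.7 RPM in WT FTL pollen, a log2 change of -3.97. AT5G42645 (chr5:17090938-17095801, minus strand) had 13.6 and 0 RPM in nrpd1a-3 FTL and 70.2 and 40.4 RPM in WT FTL pollen, a log2 change of -3.83. Between 96.8 and 99.6% of the 24-mers of each are unique. AT3G62455, rich in 21 and 22 nt, was the only tested member above 0, with 24.2 and 13.4 RPM in nrpd1a-3 FTL and 19.3 and 8.44 RPM in WT FTL pollen, which overlap.

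Of the relatives of ATGP2, 17 were tested in sorted pollen. Of the 17 tested, 9 were reduced, or 16 in the paired fit, and the median was -2.76. AT2G01040 had 122 and 66.8 RPM in nrpd1a-3 FTL, against 835 and 1107 RPM in WT FTL pollen (log2 change -3.40, limma adjusted p = 0.044), AT1G54926 had 139 and 72.2 RPM in nrpd1a-3 FTL and 807 and 1016 RPM in WT FTL pollen (-3.16), and AT2G21460 had 279 and 87.5 RPM in nrpd1a-3 FTL and 1497 and 1388 RPM in WT FTL pollen (-3.20). By contrast, AT2G01037 had 4152 and 1729 RPM in nrpd1a-3 FTL and 4615 and 3026 RPM in WT FTL pollen, which overlap, and AT2G01029 had 3469 and 1453 RPM in nrpd1a-3 FTL and 5845 and 4947 RPM in WT FTL pollen, neither of them called (log2 changes -0.48 and -1.26, limma adjusted p = 0.73 and 0.30). Both were lower in each same-numbered pair, and in the paired fit AT2G01029 was called and AT2G01037 was not (limma adjusted p = 0.0079 and 0.35). These 2 genes made up 37.8 and 29.6% of the arm signal in nrpd1a-3 FTL pollen, against 21.7 and 20.4% in WT FTL pollen, and 43.7 and 35.5% of its 24-nt signal, against 22.9 and 19.7%. Each of the 14 that pMGH3::RTL1 pollen had reduced could be tested in sorted pollen. There 9 of them were called reduced too, which is 64.3% of the 14 and 6.29% of the 143 called among 352 arm TE genes. In the paired fit 12 of the 14 (85.7%) were reduced, below the 91.5% of all tested arm TE genes. This overlap is therefore not read as particular to the 14. AT1G50810 was not among the 9, with 1145 and 202 RPM in nrpd1a-3 FTL and 1415 and 357 RPM in WT FTL pollen, where the libraries of a group differed more than the groups. It was lower in both pairs and not called in the paired fit either (limma adjusted p = 0.29).

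Among other TE genes with much signal, AT1G20390 (chr1:7065494-7071561, plus strand) had 405 and 900.1 RPM in nrpd1a-3 FTL and 588 and 1229.9 RPM in WT FTL pollen, and AT1G51175, of the ATLANTYS1 family of Gypsy elements, had 322 and 684 RPM in nrpd1a-3 FTL and 395 and 1007 RPM in WT FTL pollen. Both overlapped between the groups, with log2 changes of -0.49 and -0.43, and both were lower in each pair and not called in the paired fit (limma adjusted p = 0.36 and 0.43). In these genes 94.1 and 89.2% of 24-mers are unique. The short TE genes rich in signal per kb overlapped between the sorted groups. AT1G54905 had 32.2 and 22.1 RPM in nrpd1a-3 FTL and 50.04 and 31.3 RPM in WT FTL pollen, and AT5G25305 had 79.5 and 48.9 RPM in nrpd1a-3 FTL and 132 and 74.7 RPM in WT FTL pollen. AT2G36040 had 19.1 and 9.38 RPM in nrpd1a-3 FTL and 26.4 and 10.2 RPM in WT FTL pollen. In unsorted WT Col-0 pollen, a separate experiment, AT1G54905 had 234 and 160.4 RPM, AT5G25305 had 491 and 343 RPM and AT2G36040 had 149.7 and 87.6 RPM.

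**Figure D4:**
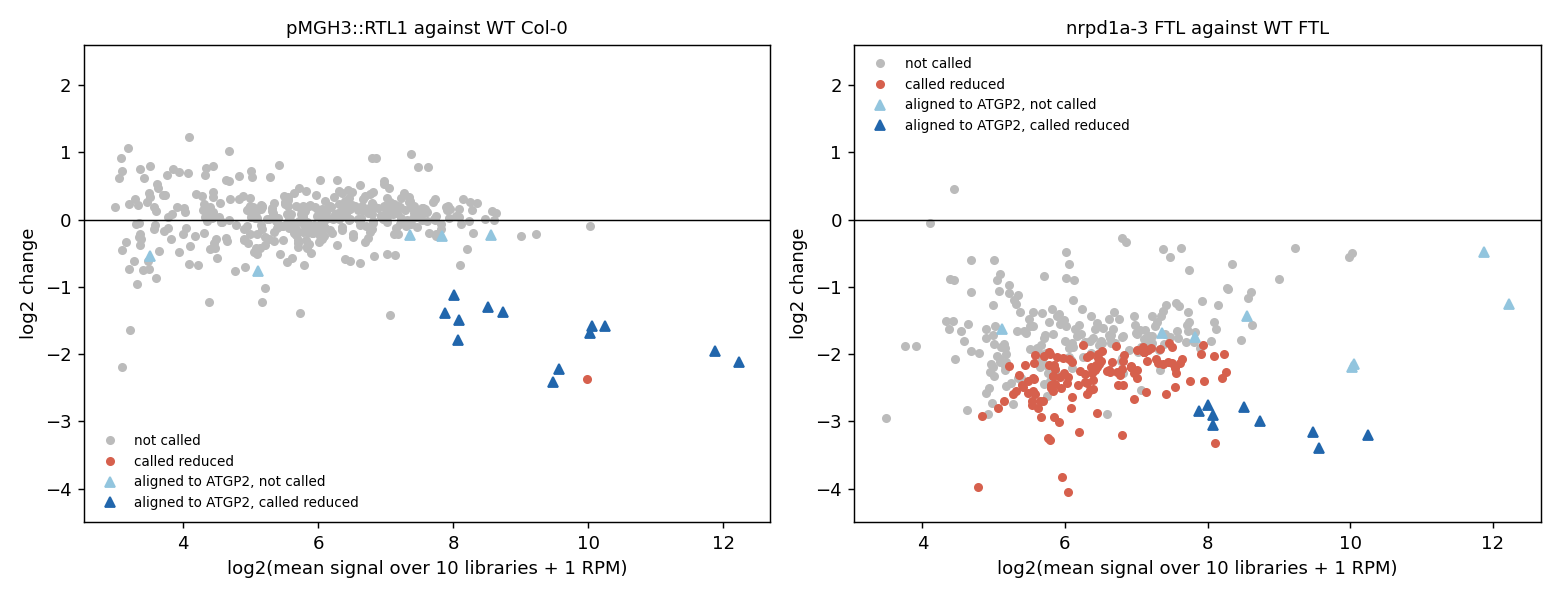
Log2 change of each tested arm TE gene against log2 of its mean signal over the 10 libraries plus 1 RPM, for pMGH3::RTL1 against WT Col-0 on the left and nrpd1a-3 FTL against WT FTL on the right, with triangles for TE genes aligned to ATGP2 and darker or red marks for those called reduced. On the left 13 of the 14 called are triangles and the median is 0.03, and on the right 351 of 352 points lie below 0.

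Of the arm signal 46.8 and 54.8% was 24 nt long in nrpd1a-3 FTL pollen and 51.5 and 50.6% in WT FTL pollen, and 33.5 and 20.0% was 21 and 22 nt long in nrpd1a-3 FTL and 23.4 and 21.1% in WT FTL pollen, so in both measures the groups overlap. The median log2 change was -1.77 at 21 and 22 nt, over 135 arm TE genes tested, and -2.02 at 23 and 24 nt, over 316. At neither length did limma call an arm TE gene (69 of 135 and 246 of 316 reduced at an unadjusted p below 0.05), and 0% of all loci were called. In the paired fit 91 of 135 were reduced at 21 and 22 nt, against 23.2% of all loci, and 300 of 316 at 23 and 24 nt, against 64.2%. No arm TE gene was raised at either length in that fit, against 8.41% of all loci at 21 and 22 nt and 16.8% at 23 and 24 nt. Over all loci tested at 21 and 22 nt the median was 0.01, so the arm TE genes stood 1.78 lower.

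Families could be given to 110 of the 555 through alignment to windows that name a single TE family. These windows are regions that the study itself called differentially methylated, in RTL1 and nrpd1a material among others. The 110 are thus a selected part of the arm TE genes, and values by family or superfamily hold for that part only. In nrpd1a-3 FTL pollen the median of every superfamily so assigned was below 0. Of the Mutator-like MuDR elements 19 of 32 were reduced (median -2.15), of the Copia retrotransposons 14 of 29 (-2.10), of the CACTA-like En-Spm elements 5 of 9 (-2.05), of the hAT elements 4 of 7 (-2.36), of the LINE retrotransposons 3 of 6 (-1.85), of the rolling-circle Helitrons 3 of 4 (-2.51) and of the Harbinger elements 2 of 3 (-2.40). The Gypsy elements had the median nearest to 0 of these, -1.50, with 4 of 12 reduced. In the paired fit 28 of 29 Copia and 8 of 12 Gypsy elements were reduced, and so was every tested element of the other 6 superfamilies named here, against 48.1% of all loci. ATCOPIA78, the heat-responsive family also called ONSEN, had 5 of 6 reduced with a median of -2.18, and the Mutator-like VANDAL6 family had 6 of 8 (-2.15). By length, 13 of 59 TE genes under 1000 bp (22.03%), 48 of 111 between 1000 and 3000 bp (43.2%) and 82 of 182 of 3000 bp or longer (45.1%) were reduced, or 46, 105 and 171 of them in the paired fit. By place, 6 of 16 that overlap a coding gene, 64 of 164 within 1000 bp of one and 73 of 172 farther off were reduced, against 21.8% of all loci. In the paired fit these were 13, 147 and 162. The share was 46 of 96 on chromosome 1, 31 of 65 on chromosome 2, 24 of 67 on chromosome 3, 16 of 56 on chromosome 4 and 26 of 68 on chromosome 5. In the paired fit 90, 58, 59, 52 and 63 of them were reduced, so the lower share on chromosome 4 did not recur there.

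Against WT Col-0 the families of 4 or more members, apart from ATGP2, had median changes between -0.56 and 0.30 over 18 to 30 nt as deposited, with no call. Scaled to the microRNA genes, 4 of 4 SIMPLEHAT2 and 2 of 30 Copia elements were reduced in pMGH3::RTL1 pollen, beside 86 of all 434 tested arm TE genes. At 21 and 22 nt AT1G49080 of ATENSPM9 was reduced in pLAT52::RTL1 pollen as given above. The 11 VANDAL2 elements, also Mutator-like, were all lower in pLAT52::RTL1 pollen under every scaling tried (median -0.38, none called, 3 at an unadjusted p below 0.05 in limma), and their median in pMGH3::RTL1 pollen was -0.01. The 10 META1 elements of the Copia superfamily had medians of 0.08 in pMGH3::RTL1 and -0.35 in pLAT52::RTL1 pollen, and the 4 ATCOPIA22 elements 0.18 in pMGH3::RTL1 and -0.28 in pLAT52::RTL1. Scaled to the summed signal, the pMGH3::RTL1 medians became -0.73 for VANDAL2 and -0.64 for META1, with the median of all loci at -0.62. The 4 SIMPLEHAT2 elements, hAT transposons, went the opposite way, with a median of -0.56 in pMGH3::RTL1 and 0.30 in pLAT52::RTL1 pollen, although scaled to the microRNA genes these became -1.33 in pMGH3::RTL1 and -0.03 in pLAT52::RTL1. Against each other, pMGH3::RTL1 was lower than pLAT52::RTL1 at all 4 (median -0.88, none called). Scaled to the microRNA genes the median was -1.32 with all 4 called, beside 37 reduced among all 434 tested arm TE genes. AT3G52410 among them had 81.3 and 75.2 RPM in pMGH3::RTL1 pollen, 184 and 126 RPM in pLAT52::RTL1 and 166 and 87.3 RPM in WT Col-0 pollen, and its 23- and 24-nt change between the constructs was -1.41 (limma adjusted p = 0.025). The 5 elements named ATGP2 were all reduced in pMGH3::RTL1 pollen (median -1.49), and their medians were 0.14 in pLAT52::RTL1 and -2.78 in nrpd1a-3 FTL pollen.

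AT3G13250 (chr3:4276747-4281476, minus strand), not aligned to ATGP2, had 78.2 and 99.7 RPM in pMGH3::RTL1 pollen, 229 and 192 RPM in pLAT52::RTL1 and 299.6 and 189 RPM in WT Col-0 pollen, with a log2 change against WT Col-0 of -1.42 (limma adjusted p = 0.056). At 23 and 24 nt it was reduced, with a log2 change of -1.49 (limma adjusted p = 0.0075), as was its neighbour AT3G13260 with -1.51. AT3G25630 had 324 and 316 RPM in pMGH3::RTL1 pollen and 299 and 286 RPM in pLAT52::RTL1 pollen, against 187 and 141 RPM in WT Col-0 pollen. Both constructs lay above both control libraries there, with log2 changes of 0.97 and 0.84 that were not called (limma adjusted p = 0.070 and 0.12).

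Compared as classes within each library, the arm TE genes had a larger share of 24-nt RNA than the pericentromeric ones. The 24-nt share of the summed signal averaged 51.6% on the arms and 36.6% in the pericentromeric ranges, higher on the arms in 10 of 10 libraries by a mean of 14.99 percentage points (SD 10.95, exact two-sided sign-flip permutation p = 0.00195, the smallest that 10 libraries can give, adjusted p = 0.00293 over 3 measures). The share of 21 and 22 nt averaged 25.1% on the arms and 33.3% in the pericentromeric ranges, lower in 10 of 10 (difference -8.14 points, the same exact permutation p). The log2 signal per kb was 5.10 on the arms and 5.48 in the pericentromeric ranges, a difference of -0.38 that did not pass (exact permutation p = 0.080). The difference in 24-nt share was 8.16 points over the 6 libraries of the RTL1 experiment and 25.2 points over the 4 sorted libraries. The exact p-values take the 10 libraries, 2 from each of 5 groups, as units. They measure only how consistently a difference recurred over these libraries, not a spread over TE genes. These shares are those of the sums, and a few TE genes set them. The 10 highest pericentromeric TE genes of each library held 79.9 and 84.7% of the pericentromeric signal in nrpd1a-3 FTL and between 22.4 and 49.1% in the other libraries. With medians over the TE genes that pass the filter, the 24-nt share differed by -0.65 points (adjusted exact permutation p = 0.0586), the 21- and 22-nt share by 1.29 points and the log2 signal per kb by 0.45 (adjusted exact permutation p = 0.00293 each). By medians, arm TE genes thus had the higher signal per kb and the higher 21- and 22-nt share in 10 of 10 libraries, opposite to the sums.

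**Figure D5:**
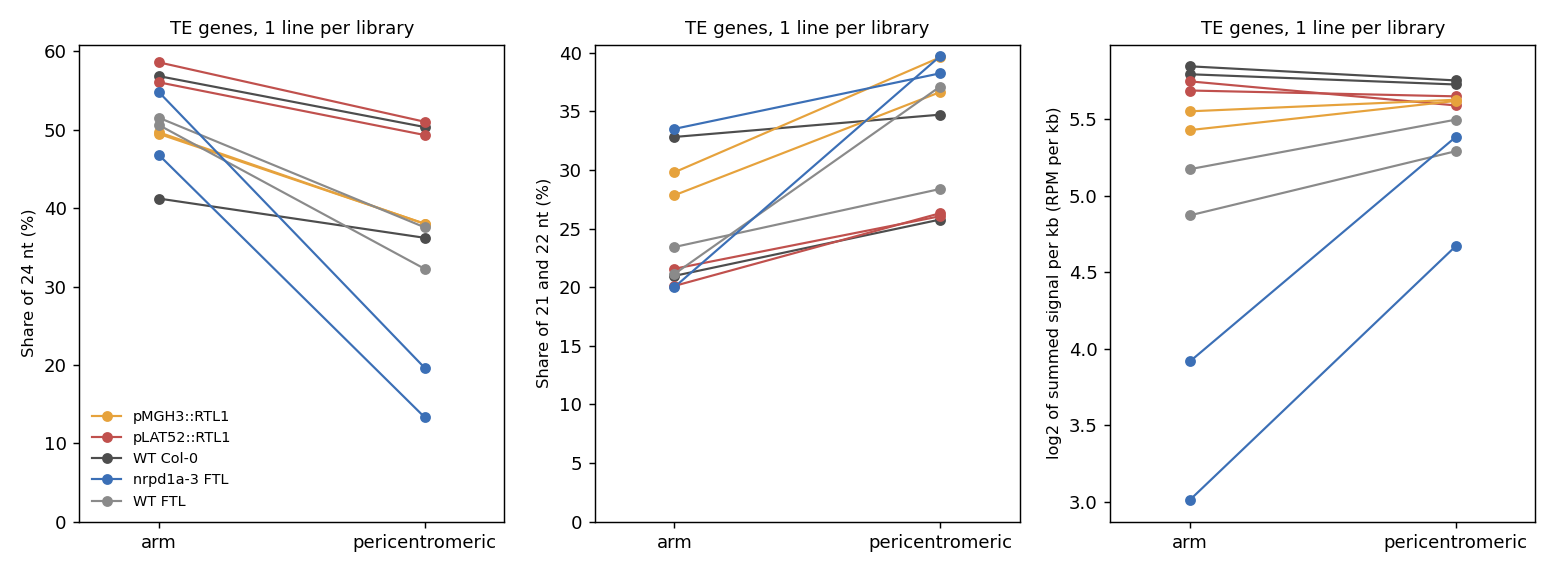
Share of 24-nt RNA in percent, share of 21- and 22-nt RNA in percent and log2 signal per kb of the summed signal in each library, with arm TE genes left and pericentromeric TE genes right and a line joining the points of a library. The 24-nt share is higher on the arms in all 10 libraries and the signal per kb is lower in 6 of 10.

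The median log2 signal of arm TE genes minus that of pericentromeric TE genes was 0.60 and 0.65 in nrpd1a-3 FTL pollen and 0.25 and 0.33 in WT FTL pollen, a difference of 0.33 without overlap (exact permutation p = 0.333, the smallest that 2 against 2 libraries allow). For pMGH3::RTL1 against WT Col-0 this difference was 0.12, for pLAT52::RTL1 against WT Col-0 it was 0.05 and for pMGH3::RTL1 against pLAT52::RTL1 it was 0.07. Only for pLAT52::RTL1 against WT Col-0 did the libraries of the groups overlap. The share of all TE signal that lay on the arms was 5.65 and 4.99% in nrpd1a-3 FTL and 11.7 and 11.02% in WT FTL pollen, 12.7 and 13.6% in pMGH3::RTL1, 14.53 and 15.6% in pLAT52::RTL1 and 14.8 and 14.9985% in WT Col-0 pollen.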

How the data were processed

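Small RNAs of 10 pollen libraries were analysed from the tables the authors deposited. Per the study's methods, single-end reads were mapped to TAIR10 with bowtie without mismatches, all hits were kept, and each read was divided by its number of hits. The deposited signal is listed per locus and RNA length in RPM, and since its sums are larger than the stated unit allows it was treated as a signal and not as counts. Lengths of 18 to 30 nt were summed and longer RNAs left out.

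Changes were tested on the log2(signal + 1) scale by limma 3.58.1 (R 4.3.3), allowing a mean-variance trend and keeping loci whose mean reached 12 hit-weighted reads, separately for the 6 RTL1 and control libraries (3 residual degrees of freedom) and the 4 sorted libraries (2 residual degrees of freedom). The threshold was a Benjamini-Hochberg adjusted p of 0.05 over all tested loci. Both sorted genotypes were collected in simultaneous sorts, per the study's methods, and the differences between their libraries 1 and 2 correlated across loci (r = 0.573). The sorted libraries were therefore also fitted as pairs by replicate number (1 residual degree of freedom), although no source says that a number marks one sort. Classes were compared with exact permutation tests that enumerate the arrangements of the libraries, and Spearman correlations were computed with scipy 1.17.1. The fit was tested on simulated data. Positions and sequences come from RefSeq TAIR10.1. Families were assigned with BLAST+ 2.17.0 to named windows among the study's differentially methylated regions, since the annotation names few.

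Among arm TE genes, 1 of each identical set, the named ones were the 8 highest by signal and by signal per kb, up to 3 largest called changes per direction and comparison with non-overlapping groups, up to 4 called in several comparisons, and the 3 highest shares of 21 and 22 nt and of 24 nt at 100 RPM or more. Other names were chosen after their values were seen. The members and lists were chosen with earlier results of these data known.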

Additional observations from a re-analysis of the deposited data

How the results depend on the processing

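With 2 libraries per group the counts of calls depend on the processing, and the cause was not tested. Apart from the length classes and the replicate block of the sorted pollen, shares over all loci were not taken for these alternatives. Counts without such a share are not read as particular to arm TE genes. For pMGH3::RTL1 against WT Col-0, the 14 reduced arm TE genes became 6 without the variance trend, 3 with only the 4 libraries of the comparison, 3 at 21 and 22 nt alone, 86 scaled to the microRNA genes, 29 scaled to the sum without structural RNAs, 23 scaled to the summed signal, and between 0 and 21 with one library left out, with between 0 and 2 raised. For pLAT52::RTL1 against WT Col-0, the 0 reduced became 2 at 21 and 22 nt, 3 scaled to the microRNA genes and 1 scaled to the sum without structural RNAs. For pMGH3::RTL1 against pLAT52::RTL1, the 16 reduced became 4 at 21 and 22 nt, 30 at 23 and 24 nt, 37 scaled to the microRNA genes, 29 to the sum without structural RNAs and 28 to the summed signal, and between 0 and 21 with one library left out. The 2 raised became 22 at 21 and 22 nt, 0 without the variance trend and under these 3 scalings, and between 0 and 3 with one library left out. For nrpd1a-3 FTL against WT FTL, the 143 reduced became 221 with a pseudocount of 5, 267 scaled to the sum without structural RNAs, 305 scaled to the summed signal, and 0 without the filter, without the variance trend, with a pseudocount of 0.1, at either length class or scaled to the median ratio (between 69 and 335 at an unadjusted p below 0.05 in limma), and between 0 and 294 with one library left out. Each TE gene named as called over 18 to 30 nt kept its direction under each alternative in which it was tested. Single calls at 21 and 22 or at 23 and 24 nt were not put through the alternatives.

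With the replicate number as a block, 322 arm TE genes were reduced in nrpd1a-3 FTL pollen (91 at 21 and 22 nt and 300 at 23 and 24 nt, alternatives chosen after seeing the data), 13 in pMGH3::RTL1 and 0 in pLAT52::RTL1 against WT Col-0, and 15 were reduced and 1 raised in pMGH3::RTL1 against pLAT52::RTL1. In the RTL1 experiment the numbers were taken as names only, since differences between the libraries of a group correlated across loci with r between -0.00370 and 0.0818 between groups.

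The arm minus pericentromeric response was 0.225 at 21 and 22 nt, 0.157 at 23 and 24 nt, 0.116 without the filter and between 0.022 and 0.107 with one library left out for pLAT52::RTL1. For pMGH3::RTL1 against WT Col-0 it was 0.163 at 23 and 24 nt, 0.194 without the filter and between 0.090 and 0.180 with one library left out. For pMGH3::RTL1 against pLAT52::RTL1 it was -0.11 at 21 and 22 nt, 0.0069 at 23 and 24 nt and between 0.019 and 0.101 with one library left out. For nrpd1a-3 FTL it was 0.226 at 21 and 22 nt, 0.242 at 23 and 24 nt, 0.270 without the filter, 0.190 with a pseudocount of 5 and between 0.242 and 0.420 with one library left out. Between classes, medians over TE genes that pass the filter reversed the differences, to -0.65 points of 24 nt, 1.29 points of 21 and 22 nt and 0.45 in log2 signal per kb. In the sums, the difference in log2 signal per kb was -0.38 over all 10 libraries and 0.015 over the 6 libraries of the RTL1 experiment. It was -0.90 in the sums without the arm TE genes aligned to ATGP2, an alternative chosen after seeing the data. The pericentromeric TE genes aligned to ATGP2 were kept there. Medians were not taken for these 2 alternatives. Over the 4 sorted libraries the shares differed by 25.2 and -11.3 points (exact permutation p = 0.125, the smallest possible). The median at 21 and 22 nt in pMGH3::RTL1 against WT Col-0, also examined after seeing the data, was -0.14 and 0.49 with one WT Col-0 library left out.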

Other observations

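Protein-coding genes within 1 kb of an arm TE gene numbered 385, of which 116 could be tested in unsorted and 57 in sorted pollen. In pMGH3::RTL1 pollen 2 of the 116 (1.72%) were reduced, against 0.962% of all loci. AT4G16900, 99 bp from the ATGP2 relative AT4G16910, had 417 and 361 RPM in pMGH3::RTL1 pollen, 1790.2 and 2251 RPM in pLAT52::RTL1 and 1617 and 2076 RPM in WT Col-0 pollen (log2 change against WT Col-0 -2.24, limma adjusted p = 0.0074). It had 978 and 628 RPM in nrpd1a-3 FTL and 1237 and 1179.6 RPM in WT FTL pollen. AT1G50820, whose intron holds AT1G50810, had 4.24 and 2.92 RPM in pMGH3::RTL1 and 21.5 and 20.9 RPM in WT Col-0 pollen (log2 change -2.29, limma adjusted p = 0.035). A single read was worth 1.06 and 1.46 RPM in the pMGH3::RTL1 libraries, so their values rest on few reads. In pLAT52::RTL1 pollen AT1G10170 and AT1G31163 were raised, with log2 changes of 1.74 and 1.51 (limma adjusted p = 0.036 and 0.026), which is 1.72% of the 116, near the 1.64% of all loci raised. In nrpd1a-3 FTL pollen 6 of the 57 (10.5%) were reduced and none raised, below the 21.8% of all loci reduced, with a median of -1.18, beside -0.96 over all loci. With same-numbered libraries paired 27 of the 57 (47.4%) were reduced and 4 raised, against 48.1% and 9.32% of all loci. All loci include many TE genes. Among all 3605 protein-coding genes tested, the paired fit called 821 (22.8%) reduced and 523 raised, with a median log2 change of 0.04. Beside coding genes alone, those near arm TE genes thus had the larger reduced share in that fit, and the reason was not tested.

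The 6 tested arm Sadhu elements, non-coding retroposons, were all lower in pMGH3::RTL1 than in WT Col-0 pollen, with a median of -0.31 and no call (1 at an unadjusted p below 0.05 in limma). Their median in pLAT52::RTL1 pollen was -0.35. Across arm TE genes, those with more GC had lower log2 changes in pLAT52::RTL1 against WT Col-0 (Spearman rho -0.43, 434 TE genes) and more 21- and 22-nt RNA (rho 0.30). These points share their libraries and are a description.

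Groups of 2 libraries limit every comparison of groups, and exact permutation of 2 libraries against 2 cannot pass a threshold of 0.05. Hit weighting spreads reads over near-identical copies on and off the arms, so a change at 1 copy can appear at others. Without strand, it cannot be told from which of several nested or overlapping loci a read came. Fewer cells of a type and less small RNA per cell cannot be told apart in whole or sorted grains, and the small RNAs at the RTL1 locus differed between the lines of a construct. No RTL1 mRNA was measured in these small RNA libraries. The study reports RTL1 expression in pollen of both constructs by RT-qPCR and by mRNA sequencing.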
